A study of Mus musculus with 27 samples.

Results

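Cortical microglia with and without ND1 transduction were compared at day 2, which for ND1 cells is day 2 after doxycycline. The comparison was chosen by the sample labels and holds 6 RNA libraries, 3 of ND1 microglia and 3 of control microglia. The series has 27 samples, 15 of them RNA libraries. All cells came from the cortex of wild-type C57BL/6 mice at postnatal day 1. ND1 cells carried lentiviruses for ND1 and for M2rtTA, the activator that doxycycline switches on, and were infected in the presence of polybrene. Their culture was changed to Neurobasal medium with B27, BDNF, GDNF and NT3, and doxycycline was added 1 time. For the control cells the labels state no virus, doxycycline or change of medium, so effects of ND1 and of these treatments on a gene cannot be told apart. The labels neither spell out ND1 nor say whether replicates are separate cultures, so p-values measure only the spread between these libraries. RNA libraries of ND1 and control microglia at day 7 and of cultured cortical neurons, 3 of each, are used below as references.

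NeuroD1 is a basic helix-loop-helix (bHLH) transcription factor of late neuronal differentiation. It pairs with class A bHLH partners such as Tcf4 and binds E-boxes, short DNA motifs of the form CANNTG, while Id proteins hold such partners away from DNA. Microglia are the resident macrophages of the brain. They arise from the yolk sac and not from the neural lineage, and their identity rests on Csf1r signalling and on factors such as PU.1 (gene Spi1) and Irf8.

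Sums of FPKM (reads on a gene after correction for its length and for the size of the library) lay between 679238 and 694090 in control and between 600293 and 618555 in ND1 libraries, and 10709 to 10755 and 11811 to 11899 genes reached 1 FPKM. The FPKM worth of 1 read, which falls with depth, differed by little among the 6 libraries, at 0.953 to 1.13 relative to control replicate 1. The microglia label was checked against marker genes. Aif1, which encodes the microglial protein Iba1, was listed at 608, 601 and 643 FPKM in control and at 386, 406 and 412 FPKM in ND1 libraries. Spi1 stood at 375.5, 357 and 374.5 FPKM in control and at 275, 294.5 and 300.5 FPKM in ND1 libraries, and Csf1r at 147 to 152 and 110 to 125 FPKM. The myeloid markers were thus present in both groups, and lower in ND1 libraries without overlap. In bulk RNA, fewer cells of a type and less RNA per cell cannot be told apart.

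The comparison asked which genes differ early after ND1 induction. Neurod1 was listed at 1.04, 1.15 and 1.08 FPKM in control libraries and at 3073, 3454 and 3337 FPKM in ND1 libraries, the largest rise of all (log2 change 10.62). Its mean at ND1 day 7 was 33.9 FPKM. FPKM per gene symbol cannot tell transcripts of an ND1 lentivirus from those of the cell's own Neurod1 gene, and their shares were not tested. Of 13602 tested genes, 1237 were higher in ND1 microglia (9.09%) and 84 were lower (0.618%) by limma with Benjamini-Hochberg adjustment, at an adjusted p under 0.05 and a log2 change of FPKM + 1 of at least 1. Most rises started from very little: 849 of the 1237 had a control mean under 1 FPKM. The 84 falls held 24 genes with at least 50 FPKM in control. The median log2 change over all tested genes was -0.04. The groups did not overlap for 1230 of the 1237 rises and 82 of the 84 falls, but also not for 77.7% of all tested genes. In the day 7 comparison, which shares no library with this one, 1176 of the 1237 rises were also higher in ND1 (95.1% of the day 2 rises and 33.6% of the 3497 day 7 rises) and 13 were lower, against 25.7% and 24.5% of all tested genes. Of the 84 falls, 70 were lower at day 7 and 0 higher. Neurons against control day 7, again without a shared library, were higher for 1163 of the 1237 rises, against 28.1% of all tested genes.

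**Figure D1:**
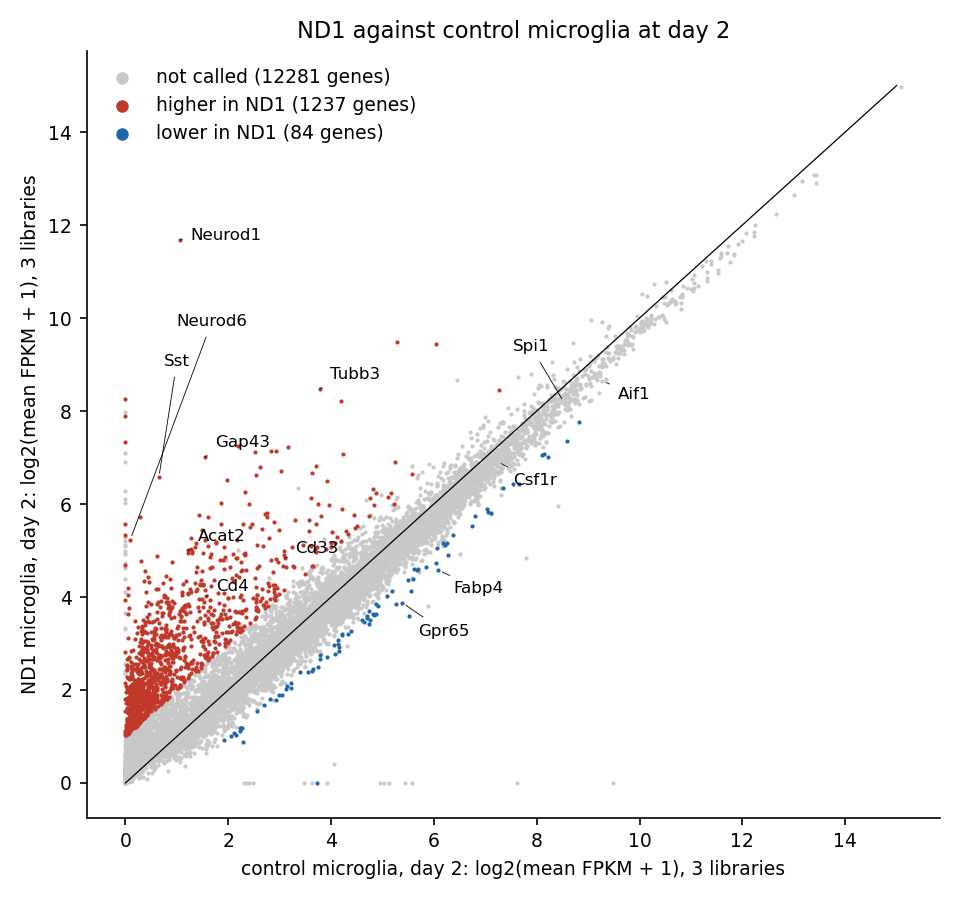
Mean expression of each of the 13602 tested genes in control (x axis) and ND1 microglia (y axis) at day 2, as log2(mean FPKM + 1) over 3 libraries each, with the line of equality. The 1237 higher genes (red) lie mostly at the left, where control levels are near 0, while Aif1, Csf1r and Spi1 lie just under the line among the genes not called.

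Among proneural and class A bHLH genes, 4 of 11 tested members rose and 0 fell. Neurod1, whose reads can include lentiviral transcripts, led, and the other 3 were Neurod6, Bhlhe22 and Neurod2. Neurod6, a bHLH factor of cortical projection neurons, was listed at 0.0165, 0.0712 and 0.112 FPKM in control and at 40.8, 35.1 and 33.7 FPKM in ND1 libraries (log2 change 5.13, SE 0.06, limma adjusted p = 1.64e-15). Bhlhe22, a bHLH repressor of cortical neurons, went from at most 0.0431 FPKM to 19.5, 16.8 and 16.0 FPKM (log2 change 4.15). Neurod2, a close relative of Neurod1, was listed at 0.0329, 0.0355 and 0.0247 FPKM in control and at 17.1, 15.3 and 13.8 FPKM in ND1 libraries (log2 change 3.99, SE 0.06, limma adjusted p = 2.15e-14). All 3 genes were near 0 in each control library and highest in ND1 replicate 1. Neurog2, a proneural gene that acts earlier in progenitors, reached at most 0.366 FPKM and was not called. With a pseudocount of 0.1 in place of 1 it passed, at a log2 change of 1.90. The partner gene Tcf4 had a log2 change of 0.79 and was not called.

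Of the Id and Hes genes, whose products restrain bHLH factors, 2 of 8 rose. Id4 went from 0.238 to 0.354 FPKM in control to 3.39, 3.12 and 2.27 FPKM in ND1 libraries (log2 change 1.59). Id3 was listed at 5.76, 4.91 and 5.95 FPKM in control and at 11.5, 13.8 and 12.6 FPKM in ND1 libraries (log2 change 1.06, SE 0.09, limma adjusted p = 2.60e-07). Its ND1 libraries were all above its control libraries, and replicate 1 was the lowest of them. Its change just missed the fold threshold without ND1 replicate 2 (0.998) or without control replicate 2 (0.988), and was 0.97 after quantile normalization. At day 7 Id3 was lower in ND1 than in control, at means of 6.73 and 19.8 FPKM. Id2 had 154.5 to 161 FPKM in control and 215 to 222 FPKM in ND1 libraries, a log2 change of 0.46 that was not called.

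Among factors and effectors downstream of proneural proteins, 10 of 22 rose, with a median log2 change of 0.85. Myt1l, a zinc finger repressor of non-neuronal genes, was listed at 0.226 to 0.280 FPKM in control and at 10.2, 8.84 and 8.30 FPKM in ND1 libraries (log2 change 3.01). Tbr1, a T-box factor of early cortical neurons, stood at 0.0288 FPKM or less in control and at 5.29, 4.66 and 4.09 FPKM in ND1 libraries (log2 change 2.47). Of 30 regional and subtype transcription factors 14 rose, among them the cortical gene Bcl11a (log2 change 3.29). The groups of neither Myt1l nor Tbr1 overlapped, and ND1 replicate 1 was highest for both.

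Rises covered the working parts of a neuron. Of 33 genes of the cytoskeleton and growth cone 30 rose (median log2 change 3.15), of 29 presynaptic genes 25 (2.19), of 30 postsynaptic genes 22 (1.47), of 22 adhesion genes 15 (1.47) and of 33 guidance genes 14 (0.85); 0 members fell in any of the 5 lists. After quantile normalization 14 postsynaptic genes were higher, and with a pseudocount of 0.1 24 guidance genes were. Over all 13602 tested genes 2367 were higher with that pseudocount, the background for each such count below. Tubb3, a beta-tubulin gene of neurons, was listed at 13.2, 13.3 and 11.7 FPKM in control and at 409, 335 and 326 FPKM in ND1 libraries (log2 change 4.70). Syt5, a vesicle calcium sensor gene, went from 0.247 to 0.375 FPKM to 19.0, 15.3 and 14.03 FPKM (log2 change 3.70). Among adhesion and guidance genes, L1cam, which supports axon growth, had a log2 change of 2.74, and Ncam1 and Robo2, a receptor for Slit repellents, had 2.82 and 1.88.

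Genes of excitability and transmitter identity rose in part. Of 27 voltage-gated channel genes 9 rose (median log2 change 0.76), led by Cacnb3, a calcium channel subunit gene, with a log2 change of 2.63. After quantile normalization 4 channel genes were higher (median log2 change 0.24), and with a pseudocount of 0.1 23 were. Of 10 transmitter genes 2 rose: Gad1, for GABA synthesis, went from 1.76 to 2.04 FPKM to 5.28 to 5.80 FPKM (log2 change 1.17), and Slc17a6, the vesicular glutamate transporter gene, from at most 0.0088 FPKM to 0.930 to 1.12 FPKM (1.03). Both genes were thus low in ND1 libraries, in the range of single FPKM, and for neither did the groups overlap. Both calls ended after quantile normalization (0.82 and 0.73), which left 0 transmitter genes higher and 1 lower, and that of Slc17a6 also after rescaling to the same FPKM sum (0.999). With a pseudocount of 0.1, 6 were higher and 1 lower. Of 9 neurotrophin and GDNF genes 3 rose (7 with a pseudocount of 0.1). Ntrk2, the BDNF receptor gene, reached 7.06, 5.96 and 5.42 FPKM from at most 0.845 FPKM in control (log2 change 2.04), and Ntf3, the gene of NT3, was listed at 0 in all 3 control libraries and at 2.24, 1.94 and 1.64 FPKM in ND1 libraries.

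Regulators of neuronal splicing and chromatin rose as well. Of 19 neuronal RNA-binding genes 15 rose, led by Khdrbs3 and Elavl3 (log2 changes 3.23 and 2.97). Ptbp2, the neuronal splicing repressor gene, and Ptbp1, its non-neuronal counterpart, had log2 changes of 0.94 and -0.38 and were not called. Among 20 genes of the BAF chromatin remodelling complex the 4 that rose were Actl6b, Dpf1, Smarcd3 and Ss18l1, of which Actl6b, Dpf1 and Ss18l1 encode subunits of the neuronal form of the complex. Actl6b was listed at 0.455, 0.594 and 0.458 FPKM in control and at 18.8, 16.1 and 16.0 FPKM in ND1 libraries (log2 change 3.58, SE 0.06, limma adjusted p = 7.47e-14). The progenitor counterparts Actl6a and Ss18 had log2 changes of -0.47 and -0.37 and were not called. Rest, the repressor of neuronal genes outside the nervous system, stood at 8.54, 8.23 and 7.87 FPKM in control and at 6.13, 6.96 and 6.53 FPKM in ND1 libraries (log2 change -0.29, not called), and of a list of 13 tested genes for REST and its corepressors Hdac2, a histone deacetylase gene, was the 1 that rose (1.02, and 0.98 without ND1 replicate 1). The 1 rise in that list stands beside a share of 9.09% over all tested genes. The corepressor gene Rcor2 is not in that list and is described below.

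**Figure D2:**
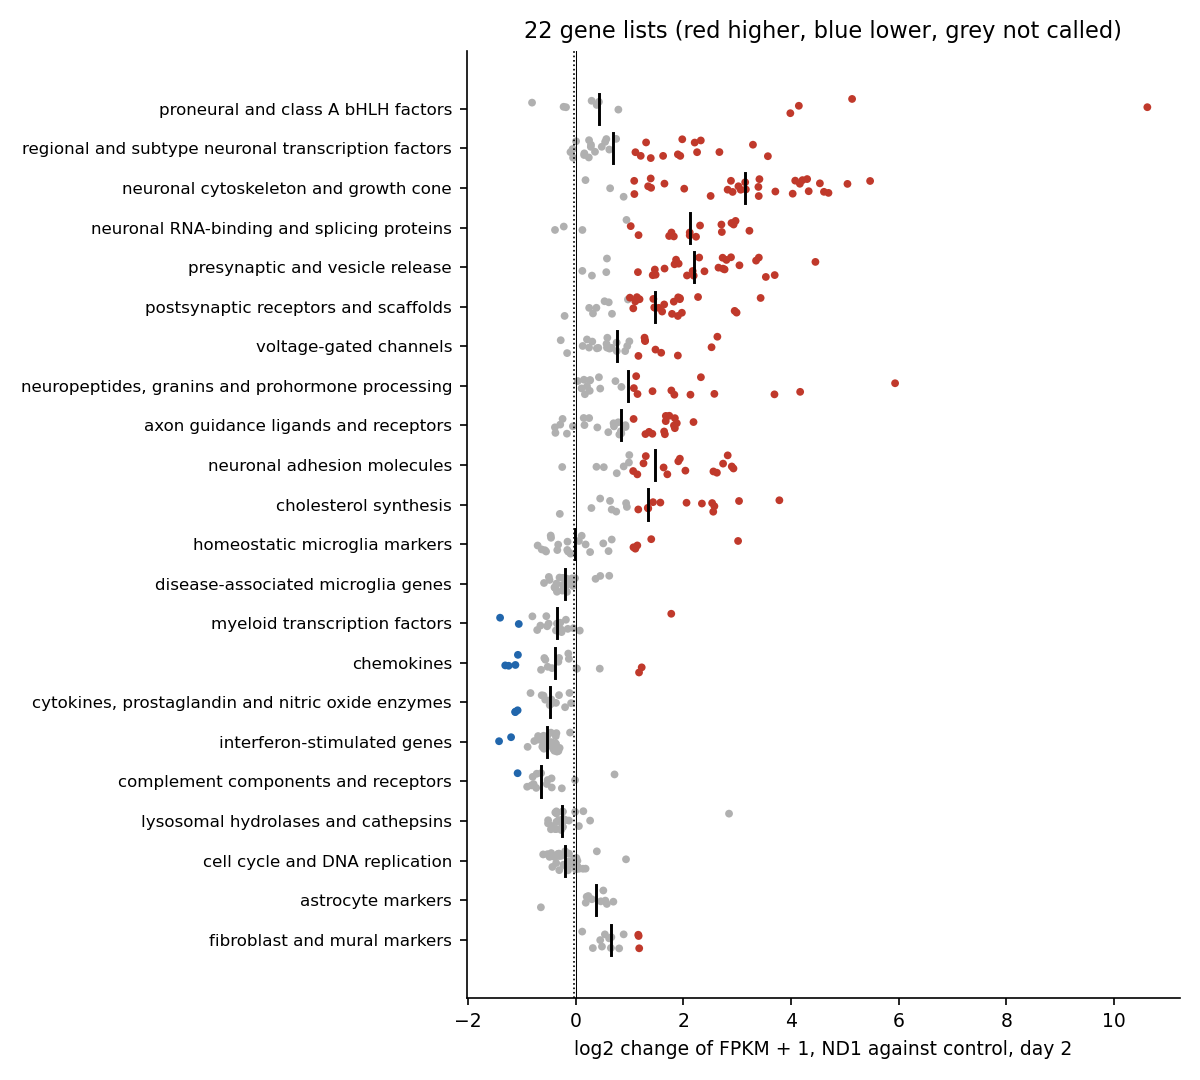
Log2 change of FPKM + 1 at day 2 (x axis) of the tested members of 22 gene lists, 1 point per gene, coloured by the limma call. Black bars mark each list's median and the dotted line the median of all tested genes (-0.04). Neuronal lists and cholesterol synthesis lie to the right, and cytokines, interferon-stimulated genes and complement just left of 0.

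The neuronal rises had a common size when set against ND1 microglia at day 7. For 716 genes at least 20 times higher in ND1 day 7 than in control day 2 and with at least 10 FPKM in ND1 day 7 and neurons, the rise at day 2 was a median of 17.1% of the rise at day 7, with an interquartile range of 16.4 to 17.7%. The percentage belonged to the library more than to the gene. Its median was 19.4% in ND1 replicate 1, 16.4% in replicate 2 and 15.4% in replicate 3, and replicate 1 had the highest value for 687 of the 716 genes. The functional groups had nearly the same percentage: medians were 16.7% for 3 bHLH genes, 17.2% for 25 cytoskeleton genes, 17.4% for 20 presynaptic genes, 16.2% for 5 guidance genes and 17.4% for 3 BAF genes. The summed FPKM of the cytoskeleton list followed the same order, at 4387, 3764 and 3620 in the 3 ND1 libraries, against 531 to 553 in control. These are descriptions without a test, and why libraries share a percentage was not tested. When each ND1 library's percentage of the ND1 day 7 profile was subtracted, 99 genes were higher (0.728%) and 46 lower (0.338%) than control, 73 and 27 of them among the original calls. Since the same neuronal rises set the percentage, most of that drop is built in.

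**Figure D3:**
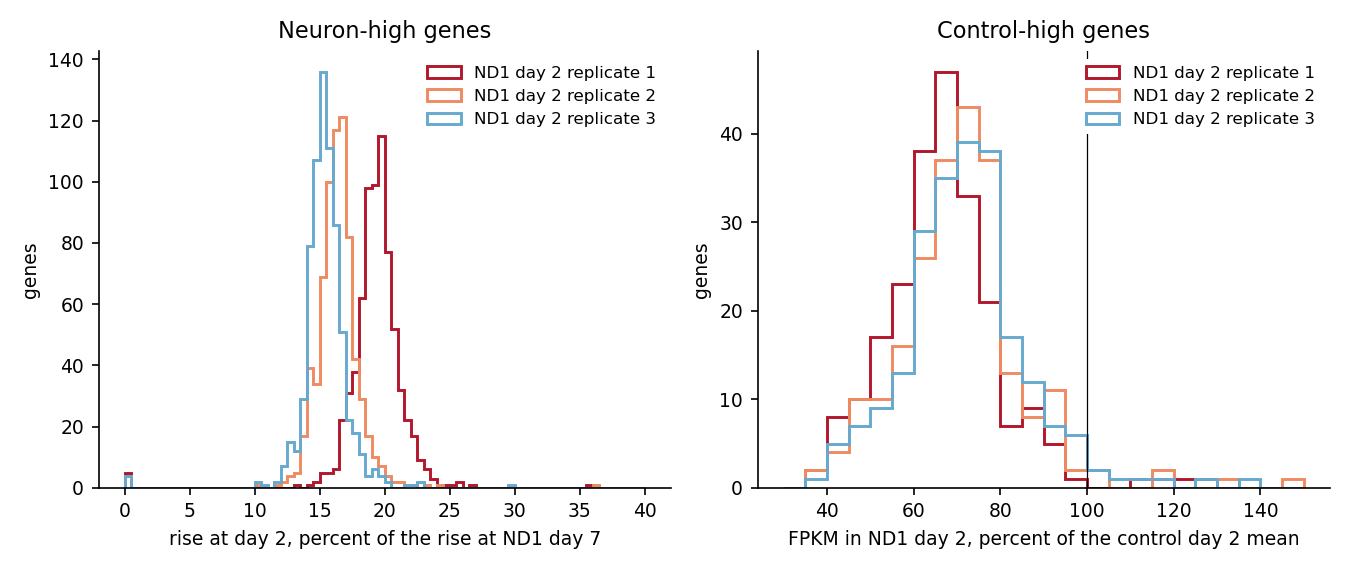
Left, rise at day 2 as a percentage of the rise at ND1 day 7 for 716 neuron-high genes (x axis; number of genes on the y axis), 1 outline per ND1 library. Right, FPKM as a percentage of the control day 2 mean for 225 control-high genes. In the left panel replicate 1 peaks to the right of replicates 2 and 3, near its median of 19.4%, and in the right panel nearly all genes lie under 100%.

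A few neuronal genes went beyond the common percentage. Of 24 neuropeptide, granin and prohormone genes 12 rose and 0 fell (median log2 change 0.97), and with a pseudocount of 0.1 21 were higher. Cck, which encodes the neuropeptide cholecystokinin, was listed at 0.331, 0.356 and 0.223 FPKM in control and at 23.8, 24.0 and 19.8 FPKM in ND1 libraries (log2 change 4.17, SE 0.21, limma adjusted p = 5.81e-10). That rise was 33.9% of its rise at day 7, and with the percentage subtracted it was still called (log2 change 3.48). Vldlr, the receptor gene for reelin and very low density lipoprotein, stood at 0.494, 0.641 and 0.481 FPKM in control and at 5.67, 5.99 and 6.10 FPKM in ND1 libraries (log2 change 2.17, SE 0.06), 48.1% of its day 7 rise. Its ND1 libraries lay close together, and replicate 1 was the lowest, unlike in most neuronal genes. Neurod2 (18.3% of day 7) and Sst, the somatostatin gene (17.5%), lay near the common value but also kept a call after subtraction, at log2 changes of 1.16 and 1.48. Both lay between the 5th and 95th percentiles of the 716 genes (15.3 and 18.9%). Their kept calls therefore do not place them beyond the common percentage. Rcor2, a corepressor gene of the REST pathway, rose from 0.661 to 0.925 FPKM to 4.54, 4.03 and 3.88 FPKM (log2 change 1.495), 41.0% of its day 7 rise. Rcor2 is not among the 716 genes that set the common percentage. Vldlr and Rcor2 were picked after their values were seen.

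Letters of the promoters are shown for Neurod2 and Cck because both rose from near 0 and kept a call after subtraction. For Neurod2 that call does not mark a percentage outside the common spread. The sequences are the 250 bases before the RefSeq gene start (GRCm38.p6), 5′ to 3′ on the gene's strand. Capitals mark 3 E-boxes on either strand. CAGATG is one, with CATCTG as its reverse complement. CAGGTG is another, with the reverse complement CACCTG, and CAGCTG is its own. Of 27025 RefSeq windows, 14.5% hold CAGATG, 12.8% CAGCTG and 17.1% CAGGTG in these 250 bases, so a match is common and is only a description of letters.
Neurod2 (chr11:98329646-98329895, minus strand): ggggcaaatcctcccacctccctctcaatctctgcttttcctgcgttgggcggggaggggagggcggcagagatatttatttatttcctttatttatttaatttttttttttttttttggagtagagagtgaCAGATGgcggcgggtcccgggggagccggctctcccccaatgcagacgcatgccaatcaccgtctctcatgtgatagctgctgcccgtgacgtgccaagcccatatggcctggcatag
Cck (chr9:121495695-121495944, minus strand): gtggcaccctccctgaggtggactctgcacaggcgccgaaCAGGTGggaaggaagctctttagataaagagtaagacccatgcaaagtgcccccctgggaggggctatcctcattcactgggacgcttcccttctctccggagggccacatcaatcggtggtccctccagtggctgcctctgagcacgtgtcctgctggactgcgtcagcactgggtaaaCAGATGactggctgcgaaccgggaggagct
The Neurod2 window holds CAGATG 118 bases before the start, and the Cck window CAGGTG at 210 and CAGATG at 30 bases before it. In the bisulfite data of 1 control and 1 ND1 library, labelled with no day and deposited with no depth, the mean methylation of CpGs within 500 bases of the start was 5.29% in control and 5.72% in ND1 for Neurod2, and 24.6% and 22.5% for Cck. With 1 library each there is no test.

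Lipid synthesis genes formed a further group of rises. Of 20 cholesterol synthesis genes 12 rose and 0 fell (median log2 change 1.34). Acat2, whose enzyme starts the pathway from acetyl-CoA, was listed at 1.05, 1.502 and 1.41 FPKM in control and at 35.7, 29.3 and 28.1 FPKM in ND1 libraries (log2 change 3.78, SE 0.09, limma adjusted p = 4.99e-13). Fdps, for farnesyl diphosphate, went from 10.98 to 11.7 FPKM to 117, 95.4 and 90.8 FPKM (log2 change 3.03). Both had ND1 replicate 1 highest and no overlap. The last steps moved less: Msmo1, Dhcr7 and Ebp had log2 changes of 0.64, 0.45 and -0.29 and were not called. The 7 members that met the 20-fold rule stood at a median of 15.8% of their day 7 rise (15.1 to 17.5%). Mvd, a decarboxylase of the mevalonate branch, did not meet that rule. It stood at 30.1%, with 11.8, 11.3 and 12.5 FPKM in control and 34.0, 30.6 and 30.8 FPKM in ND1 libraries (log2 change 1.35).

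Of 19 genes of SREBP regulation and fatty acid synthesis 6 rose, led by the desaturase gene Fads2 (log2 change 3.15) and the elongase gene Elovl6 (1.94). Acss2, which makes acetyl-CoA from acetate, was listed at 4.84, 4.69 and 4.92 FPKM in control and at 12.3, 13.1 and 12.7 FPKM in ND1 libraries (log2 change 1.23, SE 0.04, limma adjusted p = 7.48e-12). Its mean was higher at ND1 day 2 than in any other group, against 8.96 FPKM at ND1 day 7 and 5.24 FPKM at control day 7, and was singled out after its values were seen. Srebf2, the master regulator gene of the cholesterol pathway, had a log2 change of 0.98 and was not called (1.13 and called after rescaling to the same FPKM sum). Of 15 LXR target and efflux genes Abca9 rose (1.30) and Fabp4, a fatty acid binding protein gene, fell, from 70.2, 64.6 and 66.1 FPKM to 22.1, 24.0 and 22.6 FPKM (log2 change -1.51). The sterol exporter gene Abca1 had a log2 change of -0.59 and was not called.

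A small set of 37 genes was higher in ND1 day 2 than in both control day 2 and ND1 day 7. Neurod1 was one of them, 5 were microRNA genes, and 31 were other genes. Of the 37, 30 had a neuron mean under 1 FPKM, microRNA genes among them. The share of all tested genes under that level is not given here. Expression at ND1 day 7 was close to that in neurons (r of 0.898 to 0.909). Low neuron levels are thus partly built into a set chosen as lower in ND1 day 7. Over all tested genes, 21.1% were higher in ND1 day 2 than in ND1 day 7. Because the comparisons with control day 2 and with ND1 day 7 share the ND1 day 2 libraries, the count of 37 is a description. Slco2b1, an organic anion transporter gene of homeostatic microglia, was listed at 0.263, 0.306 and 0.329 FPKM in control and at 8.08, 9.67 and 10.997 FPKM in ND1 libraries (log2 change 3.02, SE 0.09, limma adjusted p = 6.46e-12). ND1 day 7 had a mean of 2.59 FPKM and control day 7 of 5.86 FPKM. Cd4, a T cell co-receptor gene that macrophages can express, stood at 2.02, 2.15 and 1.75 FPKM in control and at 14.2, 15.9 and 15.6 FPKM in ND1 libraries (log2 change 2.45), and at a mean of 0.153 FPKM in ND1 day 7. Both genes had ND1 libraries well above control, with replicate 1 the lowest.

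Other genes of the set are known from immune cells. Cd33, an inhibitory sialic acid binding receptor gene, went from 8.10, 7.54 and 7.198 FPKM to 26.6, 28.0 and 28.6 FPKM (log2 change 1.74). Kynu, for the kynureninase of tryptophan breakdown, went from 9.57, 10.8 and 9.61 FPKM to 31.2, 32.9 and 37.2 FPKM (log2 change 1.66). Tgfbr1, a receptor gene for TGF-beta, on which homeostatic microglia depend, went from 18.2, 19.7 and 17.5 FPKM to 39.0, 42.2 and 44.9 FPKM (log2 change 1.14, SE 0.06). In these 3 genes, too, the groups did not overlap and replicate 1 was the lowest ND1 library. That held for 27 of the 31 genes, the reverse of the neuronal genes. It was not particular to this set: replicate 1 was also lowest for 201 of 225 control-high genes described below. Subtraction of the day 7 percentage left 35 of the 37 called. It raises any value above the ND1 day 7 mean, and the 37 were chosen as higher than ND1 day 7. That outcome is therefore built in.

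Other members of the 37 started from less than 1 FPKM in control. Gm1965, a predicted gene, was listed at 0.0435, 0.0331 and 0.0518 FPKM in control and at 11.8, 12.1 and 13.8 FPKM in ND1 libraries (log2 change 3.70, SE 0.06, limma adjusted p = 2.62e-14). Ivl, which encodes involucrin of the skin's cornified envelope, went from 0.585 to 0.843 FPKM to 8.86, 9.89 and 9.75 FPKM (log2 change 2.61). Nkpd1, a gene of the KAP NTPase family, went from 0.0379 FPKM or less to 5.17, 5.44 and 5.55 FPKM (2.64). Sct, the gene of the hormone secretin, went from 0.226 to 0.615 FPKM to 4.82, 6.28 and 4.98 FPKM (2.15, SE 0.25). All 4 were low in neurons and in ND1 day 7, with means of at most 0.848 and 0.887 FPKM, and Ivl, Nkpd1 and Sct were picked after their values were seen.

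**Figure D4:**
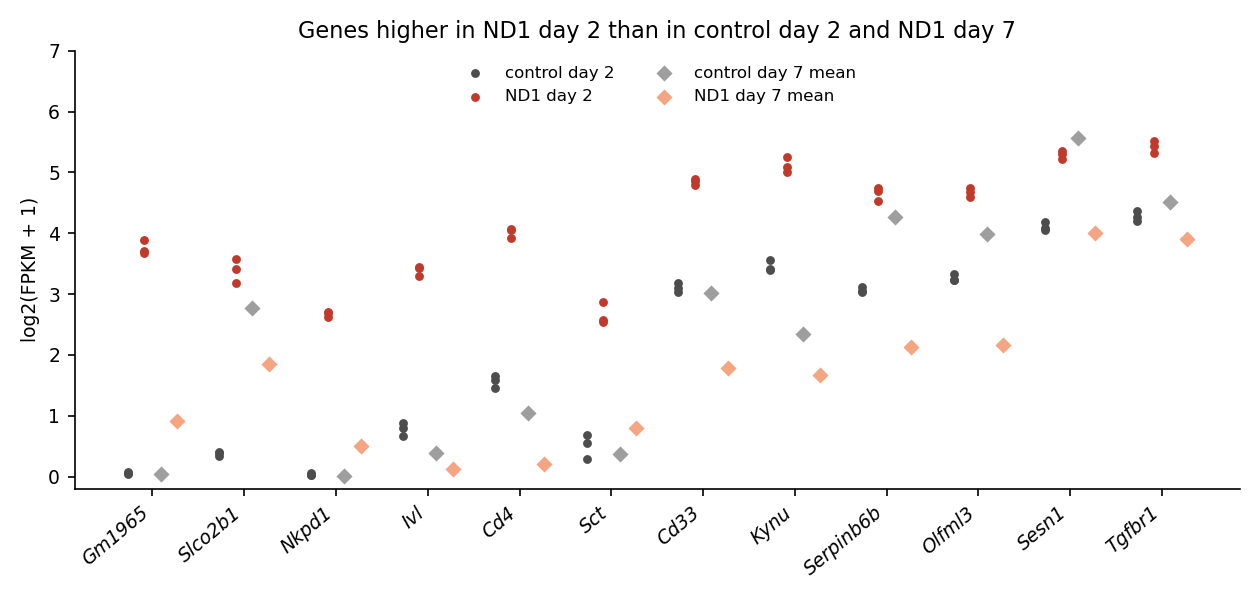
Expression as log2(FPKM + 1) (y axis) of 12 genes higher in ND1 day 2 than in control day 2 and ND1 day 7. Round points are single day 2 libraries and diamonds the means of 3 day 7 libraries. Red points lie above the dark points for each gene, and above the ND1 day 7 diamond. The control day 7 diamond of Sesn1 lies above its ND1 day 2 points.

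The windows of 8 of these genes were read, and the 4 shown were picked afterwards, as windows that hold at least 1 of the 3 motifs. They are therefore no sample of the 37 genes. Window, build and capitals are as for Neurod2.
Slco2b1 (chr7:99711341-99711590, minus strand): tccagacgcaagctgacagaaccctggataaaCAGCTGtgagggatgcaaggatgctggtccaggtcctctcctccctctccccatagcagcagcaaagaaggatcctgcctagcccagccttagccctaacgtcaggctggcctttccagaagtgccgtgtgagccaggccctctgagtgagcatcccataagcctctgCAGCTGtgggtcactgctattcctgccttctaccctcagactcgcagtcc
Ivl (chr3:92573736-92573985, minus strand): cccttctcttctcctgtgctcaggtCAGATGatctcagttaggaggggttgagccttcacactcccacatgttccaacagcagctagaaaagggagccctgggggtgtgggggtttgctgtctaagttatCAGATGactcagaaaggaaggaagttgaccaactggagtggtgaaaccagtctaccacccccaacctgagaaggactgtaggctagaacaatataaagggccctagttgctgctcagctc
Nkpd1 (chr7:19518481-19518730, plus strand): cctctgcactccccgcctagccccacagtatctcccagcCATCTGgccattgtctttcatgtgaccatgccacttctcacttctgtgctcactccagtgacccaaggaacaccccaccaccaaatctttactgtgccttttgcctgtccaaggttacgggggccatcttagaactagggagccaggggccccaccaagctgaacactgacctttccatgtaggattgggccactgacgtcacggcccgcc
Sct (chr7:141279134-141279383, minus strand): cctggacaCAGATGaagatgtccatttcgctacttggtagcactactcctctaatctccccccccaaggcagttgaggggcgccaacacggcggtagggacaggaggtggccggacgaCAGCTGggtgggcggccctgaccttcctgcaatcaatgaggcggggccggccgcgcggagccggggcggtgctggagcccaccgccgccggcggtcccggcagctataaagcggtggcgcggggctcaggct
Slco2b1 holds CAGCTG at 218 and 50 bases before the start, Ivl CAGATG at 225 and 120, Nkpd1 CATCTG at 211, and Sct CAGATG at 242 and CAGCTG at 132. Olfml3, not shown, holds CATCTG at 125. The windows of Gm1965, Cd33 and Sesn1, and that of Vldlr, hold none of the 3 motifs, which says only that these letters are not in these bases. CpG methylation within 500 bases of the start was 36.5% in the control and 43.3% in the ND1 library for Slco2b1, 77.3% and 70.9% for Nkpd1, and 19.1% and 19.7% for Sct.

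For 13 genes, the ND1 libraries were higher than control at day 2 and lower at day 7, and 0 genes showed the opposite order. The difference between the effects was called for all 13 by limma with Benjamini-Hochberg adjustment, as it was in that direction for 20.8% of all tested genes. Since both effects had to pass the fold threshold with opposite signs, that call was nearly fixed by the choice of genes and adds no support. Sesn1, a stress-induced regulator of mTORC1 and target of p53 and FoxO factors, was listed at 15.6, 17.3 and 16.0 FPKM in control and at 36.2, 38.6 and 39.7 FPKM in ND1 day 2 libraries (log2 change 1.18), and at means of 46.2 FPKM in control day 7 and 15.006 FPKM in ND1 day 7. Serpinb6b, a serine protease inhibitor gene, went from 7.22, 7.28 and 7.64 FPKM to 22.2, 24.9 and 25.7 FPKM (1.59), with 18.3 FPKM in control day 7 and 3.40 FPKM in ND1 day 7. For both genes the control day 7 mean was above the control day 2 libraries, above all ND1 day 2 libraries for Sesn1 and below all of them for Serpinb6b.

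Most microglial genes of high control level stood below control. For 225 genes with at least 50 FPKM in control day 2 that were at most 5% of that level in ND1 day 7 and 1% in neurons, ND1 day 2 libraries stood at a median of 69.9% of control, with an interquartile range of 62.2 to 76.4%. The library medians were 66.9% in replicate 1, 70.7% in replicate 2 and 72.2% in replicate 3, and replicate 1 was lowest for 201 of the 225. This percentage of control and the neuronal genes' percentage of the day 7 rise are unlike measures, so their ranges cannot be compared. Extremes of the neuronal genes reached 0% (Fth1, listed at 0 in all 6 libraries) and 271% (DQ267100). The 225 genes ranged from 39.8% for Clec4e, a C-type lectin gene, to 136% for Ly6a, the Sca-1 gene, which had 150, 165 and 153 FPKM in control and 188, 230 and 218 FPKM in ND1 libraries. Rescaling each library to the same FPKM sum moved the median log2 change of all tested genes from -0.04 to 0.10, so changes of the size of these shifts depend on the scaling.

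Among homeostatic markers, log2 changes lay on both sides of 0, around a median of -0.02. The summed level of the 26 listed genes was lower, at 7968 to 8921 FPKM in ND1 and 10987 to 11365 FPKM in control libraries. Of 24 tested members 5 rose and 0 fell. Besides Slco2b1 and Tgfbr1 these were Olfml3, a secreted matrix protein gene (1.404), Sparc (1.11) and Siglech (1.07), a lectin gene that reached only 0.951, 1.30 and 1.39 FPKM. After quantile normalization 3 were called, without Sparc and Siglech. C1qa, a complement gene, stood at 2504, 2512 and 2606 FPKM in control and at 1751, 1886 and 1915 FPKM in ND1 libraries (log2 change -0.46, not called). P2ry12, the purinergic receptor gene, overlapped between the groups, at 8.75 to 10.7 FPKM in control and 8.57 to 11.2 FPKM in ND1 libraries. Of the 22 disease-associated microglia genes 0 were called by limma, with a median log2 change of -0.20, which was -0.03 after rescaling to the same sum. At adjusted p alone, without the fold threshold, 3 of the 22 were higher and 10 lower, against 31.6% and 36.3% of all tested genes.

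Of 19 myeloid transcription factors 2 fell and 1 rose. Batf3, a dendritic cell factor, fell (log2 change -1.06, and -0.91 and not called after rescaling to the same FPKM sum), while Mef2c, which neurons also express at a mean of 87.3 FPKM, rose from 6.50 to 7.29 FPKM to 27.5, 25.5 and 24.6 FPKM (1.78). Spi1 and Irf8 had log2 changes of -0.35 and -0.29 and were not called. Among the largest falls of all was Gpr65, a proton-sensing receptor gene, from 38.8, 43.5 and 40.4 FPKM to 12.5, 14.002 and 14.4 FPKM (-1.52). Its mean in ND1 libraries was 33.3% of its control mean, and the groups did not overlap.

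Chemokine and cytokine genes held falls in ND1 microglia. Of 18 chemokine genes 4 fell, Cxcl10 (log2 change -1.31), Ccl4 (-1.24), Ccl7 (-1.12) and Ccl3 (-1.07), and 2 rose, Cxcl1 (1.23) and Cx3cl1 (1.18), the neuronal chemokine gene. Both rises lost their call after quantile normalization (0.67 and 0.61). Ccl3 was listed at 456, 435 and 473 FPKM in control and at 218, 220 and 208 FPKM in ND1 libraries. Of 15 cytokine and mediator genes 3 fell and 0 rose (median log2 change -0.48). Il1b went from 50.4, 48.4 and 52.4 FPKM to 24.0, 24.1 and 21.998 FPKM (-1.08), Il6 from 3.32, 2.83 and 4.19 FPKM to 1.15, 0.889 and 1.06 FPKM (-1.12), and Il18 had -1.12. Tnf (-0.37) and Il1rn (-0.08), the gene of the interleukin 1 receptor antagonist, were not called. After rescaling of each library to the same FPKM sum, 2 of 18 chemokine and 0 of 15 cytokine genes were called as lower, with Ccl3 at -0.90 and Il1b at -0.91. With a pseudocount of 0.1, 5 cytokine genes were lower. Of the inflammasome and NF-kappaB feedback genes Nlrp3 (-1.17) and Irak3 (-1.16) fell, 1 of 23 and 1 of 22 tested members, and Irak3 was not called after rescaling to the same FPKM sum (-0.99).

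All 31 interferon-stimulated genes had a log2 change under 0 (30 of 31 after each of 3 other scalings), with a median of -0.53, and 2 fell: Ifitm6 (-1.42) and Mx1, an antiviral GTPase gene, from 289, 305 and 294.5 FPKM to 118.5, 133 and 135 FPKM (-1.20, and -0.96 and not called after quantile normalization). Rsad2, another antiviral gene, changed least, at 895.5 to 927 FPKM in control and 819 to 881 FPKM in ND1 libraries (-0.10, not called). Of all 13602 tested genes, 7403 had a log2 change under 0. The 225 control-high genes described above, Mx1 and Rsad2 among them, stood at a median of 69.9% of control. Of 28 tested pan-myeloid and macrophage markers 26 had a log2 change under 0, with a median of -0.45. Lower levels were thus not particular to interferon-stimulated genes. Of 15 complement genes C4b fell (-1.08), and the list had a median of -0.64. C4b was not called after rescaling to the same FPKM sum (-0.93) or median ratio scaling (-0.99), which left 0 members lower. H2-Q6, the 1 of 23 antigen presentation genes that fell, belongs to a family of near-identical genes and is uncertain.

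**Figure D5:**
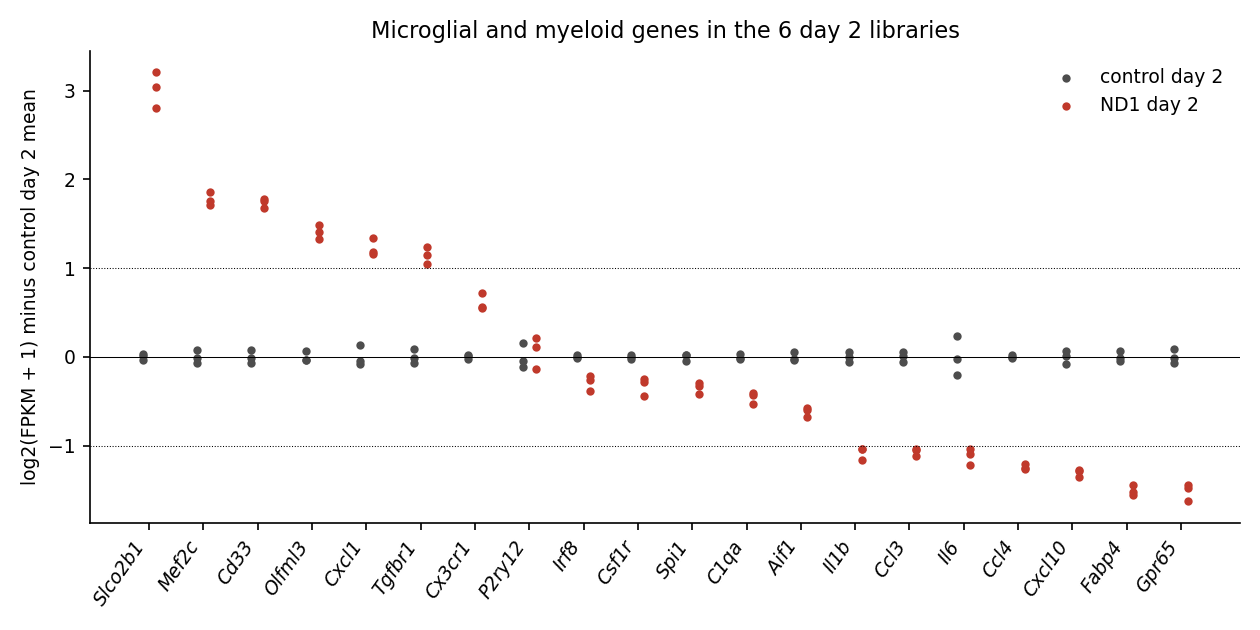
Level of 20 microglial and myeloid genes in the 6 day 2 libraries, as log2(FPKM + 1) minus the mean of the 3 control libraries (y axis), 1 point per library, with dotted lines at the fold threshold. Control points lie around 0, and the ND1 points range from Slco2b1 at the left, over P2ry12 near 0, to Gpr65 at the right.

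Housekeeping and stress lists held few called genes. Of 31 cell cycle genes 0 were called by limma (median log2 change -0.20), as was the case for 16 heat shock genes (0.07), 20 NRF2 and metal genes (-0.09) and 26 lysosomal hydrolase genes (-0.25). At adjusted p alone 3 cell cycle genes were higher and 16 lower, against 31.6% and 36.3% of all tested genes. Of 26 glycolysis and hypoxia genes Pfkm (1.71) and Ldhb (1.37), isoenzyme genes used by neurons, rose, a share near the 9.09% of all tested genes. Of 23 genes of the unfolded protein and integrated stress response Phgdh, the first enzyme of serine synthesis, fell from 50.2, 48.1 and 52.0 FPKM to 23.5, 22.2 and 23.3 FPKM (-1.09, and -0.92 and not called after rescaling to the same FPKM sum), and of 27 oxidative phosphorylation genes Cox6a2 fell (-1.24). Glucocorticoid-responsive genes rose in 2 of 19 cases, Ddit4 (1.77) and Sesn1, again near that share. Of 20 immediate early genes only Nr4a3 rose (1.90), against 9.09% of all tested genes. With a pseudocount of 0.1, 3 were higher, against 2367 of all 13602 tested genes. Of 24 genes of TGF-beta, BMP and WNT signalling 6 rose, among them the antagonist genes Sfrp1 (2.39), Dkk3 (1.79) and Fst (1.48). Gadd45b, a stress gene linked to DNA demethylation, was the 1 called member of 23 genes of DNA methylation and Polycomb (-1.21, and -0.99 and not called after quantile normalization).

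Markers of other cell types differed in level and direction. Of 10 astrocyte markers 0 were called (median log2 change 0.38, and -0.20 after quantile normalization), with summed levels of 96.0 to 103 FPKM in control and 129 to 139 FPKM in ND1 libraries. Gfap stood at 2.56 to 3.07 FPKM in control and 4.27 to 5.59 FPKM in ND1 libraries (log2 change 0.55). Of 5 tested oligodendrocyte markers 0 were called, their 12 listed genes summed to 63.6 to 65.3 and 39.6 to 41.2 FPKM, and Sox10 was at most 0.282 FPKM. Of 13 fibroblast and mural markers Thy1, which neurons express too, Col1a1 and Acta2 rose (1.18, 1.17 and 1.16), and their list summed to 6.4006 to 7.89 FPKM in control and 20.2 to 21.9 FPKM in ND1 libraries. After quantile normalization 0 of the 13 were called, and with a pseudocount of 0.1 10 were higher. Of 2 tested lymphocyte and granulocyte markers Cd4 rose, and the 13 list genes found in the tables summed to 5.65 to 6.36 FPKM in control and 20.6 to 21.4 FPKM in ND1 libraries. Dcn and Lum, which define fibroblasts, were at most 0.206 FPKM, and the endothelial genes Cldn5 and Cdh5 at most 0.0257 and 0.354 FPKM. Of 11 progenitor markers 2 rose, Fabp7, a radial glia lipid carrier gene (2.54), and Emx1, a dorsal forebrain factor (2.23), at 17.6% and 17.5% of their day 7 rise, and 7 were higher with a pseudocount of 0.1. The summed level of the 14 progenitor genes in the tables was the highest of these lists and overlapped between the groups, at 851 to 898.5 FPKM in control and 842.5 to 880 FPKM in ND1 libraries. The part of such cells in the neuronal rises was not tested. The neuron-defining genes Rbfox3, Snap25 and Syt1 all rose, to 4.45 to 4.92, 11.5 to 14.045 and 9.22 to 10.996 FPKM.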

How the data were processed

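RNA was measured in 15 libraries, 3 per group. The authors deposited FPKM per gene symbol for 24293 symbols, made with TopHat, Bowtie2, Cuffdiff and Cufflinks on mm10 per the submitters' processing notes, with no versions. For bisulfite libraries the deposited value is a methylated fraction at each CpG, without depth, and the sources used here do not give their tools. Immunoprecipitation libraries were not analysed here.

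Genes that reached 1 FPKM in 3 or more libraries (13602) were fitted as log2(FPKM + 1) with limma 3.58.1 in R 4.3.3, all 15 libraries in 1 fit with a mean per group (10 residual degrees of freedom). Fold changes are on this scale, which understates low genes. Calls needed a Benjamini-Hochberg adjusted p under 0.05 over all tested genes and an absolute log2 change of at least 1, a rule tested on simulated data. FPKM tables hold no counts, so counting error is not given. Values at exactly 0 in genes otherwise expressed (Nsg2 in ND1 replicate 1, Fth1 in all 6 day 2 libraries) can be failed estimates. The set of members and the 52 gene lists were chosen with earlier results of these data known. Named genes were a fixed set of regulators, the 12 largest changes each way with at least 10 FPKM, the 4 largest called changes per list (or the largest change where none was called), the members of the homeostatic and cholesterol lists, 12 genes above control day 2 and ND1 day 7, and genes with opposite changes at the 2 days. Some genes that the rule names are not reported here. Other genes, mostly ones not called, were named after their values were seen. Promoter windows (250 bases before the start) came from RefSeq GRCm38.p6. Of 13414 tested genes with a usable symbol 10673 had a window, under 80%, so motif and methylation comparisons by call, though computed, were void and single genes are described.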

Additional observations from a re-analysis of the deposited data

Results flagged for a closer look

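For 13 genes the called effects of ND1 at day 2 and at day 7 had opposite signs. Limma with Benjamini-Hochberg adjustment called the difference between the 2 effects in each case, which the choice of genes nearly fixed. All were higher than control at day 2 and lower at day 7. The day 2 effect minus the day 7 effect, on the log2(FPKM + 1) scale and given for 12 of them, was 4.203 for Gm5086, 3.72 for Serpinb6b, 3.66 for Abca9, 3.46 for Cyp4f18 and for Arhgap18, and 3.23 for Olfml3. It was 3.10 for Sh2d1b1, an adaptor gene of natural killer cells, 2.98 for Cd33, 2.74 for Sesn1, 2.66 for Hyal1, which encodes a hyaluronidase, and 2.49 for Id3. For Mir7035 it was 10.41, but its control day 2 libraries were listed at 0, 0 and 109.5 FPKM and its ND1 day 2 libraries at 92.7, 49.9 and 46.5 FPKM, so the groups overlapped. Its day 2 change had an SE of 1.28 and missed the threshold without ND1 replicate 1 and without control replicate 1 or 2 (limma adjusted p 0.0654, 0.104 and 0.105).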

How the results depend on the processing

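Called genes numbered 2367 higher and 157 lower with a pseudocount of 0.1, and 4300 and 4944 by adjusted p alone. Rescaling to the same FPKM sum left 33 lower, median ratio scaling 45 lower, and quantile normalization 817 higher and 159 lower (83.7% of calls higher, against 93.6%). Subtraction of the ND1 day 7 percentage left 99 and 46. The 37 genes above control and ND1 day 7 became 60 with a pseudocount of 0.1, 60 after subtraction and 390 by adjusted p alone, and the 13 opposite genes 36, 46 and 791. Members of all lists numbered 228 higher and 20 lower. Rescaling gave 11 lower, subtraction 16 higher, and adjusted p alone 446 higher and 370 lower. The median percentage of day 7 was 12.8% after rescaling. Leaving out 1 day 2 library gave 1171 to 1280 higher and 74 to 91 lower genes. Replicate numbers did not pair libraries (r of deviations over 0.1 in 2 of 30 pairs, range -0.226 to 0.161). With a replicate block 1235 rose and 84 fell, 1235 and 83 of them shared. Of 119 named genes, 0 changed their call under the block. Subtraction turned the sign of 21: Acat2 -1.07, Mef2c -0.97, Gad1 -0.60, Ldhb -0.53, Snap25 -0.40, Syt1 -0.38, Hdac2 -0.37, Robo2 -0.37, Elovl6 -0.32, Ncam1 -0.27, Khdrbs3 -0.26, Acta2 -0.25, Smarcd3 -0.18, Pfkm -0.17, Sfrp1 -0.16, Neurod6 -0.0918, Ntrk2 -0.0825, Cxcl1 -0.0809, Bhlhe22 -0.0540, Fdps -0.0137 and Cx3cl1 -0.0047. This follows from its construction for genes at or under the common percentage. A further 37 named genes kept their sign but not their call. Quantile normalization ended 17 calls and rescaling 10. Motif and methylation comparisons by call were computed but are not used, since too few genes had a window. Depth is not given by FPKM, and no test of counting error was made.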
